A study of Mus musculus with 6 samples.

Results

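Laminins are the large cross-shaped proteins that polymerise into the base sheet of every basement membrane, and nidogen-1 ties that sheet to the type IV collagen network. The genes described here are 4 laminin alpha chains (Lama2, Lama3, Lama4 and Lama5), 3 beta chains (Lamb1, Lamb2 and Lamb3), the gamma chain gene Lamc1 and Nid1. They were chosen by gene symbol from the table of normalised counts: 9 of its 24521 genes. RNA sequencing compared 3 lungs labelled Mll3FDC/FDC, called Mll3 KO by the submitters, with 3 wild-type lungs, all from mouse embryos at E18.5, just before birth. Mll3, encoded by Kmt2c, is a histone H3 lysine 4 methyltransferase that acts mainly at enhancers. The labels name no Cre driver, strain, embryo sex or litter. They call the samples triplicates without saying whether each came from its own embryo. Every p-value therefore rests on the spread among these 6 libraries, part of which may be technical.

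Every laminin is a trimer of 1 alpha, 1 beta and 1 gamma chain, joined in a coiled coil inside the cell before secretion. In lung, the alpha chain sets much of where a laminin lies. Lama5 is the main alpha chain of epithelial basement membranes, Lama3 joins Lamb3 in the laminin that anchors epithelium, Lama4 is the vascular alpha chain, and Lama2 belongs to muscle and mesenchyme. The trimers are bound at the cell surface by integrins and dystroglycan.

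The libraries held 20158689 to 23305306 reads, and 19042 genes passed the filter on low counts. All 9 members were tested, with 1910 to 30354 reads per library. Kmt2c itself was at 143, 171 and 159 CPM (reads scaled to library size) in Mll3 KO lungs, against 162, 179 and 162 CPM in wild-type lungs, and did not pass the test (log2 difference −0.09 ± 0.08 SE, adjusted p = 0.737, by edgeR's quasi-likelihood test, adjusted after Benjamini and Hochberg over all genes tested). Where in Kmt2c the allele lies is not given in the labels, so counts over the whole gene do not check the genotype. The library of knockout 3 held 59951 Xist reads and 4 reads of Y-linked genes. Each of the other 5 held at most 27 of Xist and at least 7414 of Y-linked genes, so knockout 3 did not share an embryo with any of them. No member lies on a sex chromosome. Wild type 1, wild type 2 and knockout 1 share the number that prefixes their sample titles and the other 3 libraries share another, with no meaning given. Skeletal muscle transcripts differed between libraries of both genotypes: 8 listed markers (6 of them tested) summed to 540 CPM in knockout 2 and 16.4 to 21.9 CPM in the other knockout lungs, against 556 CPM in wild type 1 and 15.4 to 22.4 CPM in the other wild-type lungs.

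Promoter sequences from RefSeq (build GRCm38.p6, 250 bases before to 50 after an annotated start) were taken for 6 of the 9 members, in 7 windows. Shown are the windows of the member with the highest level among these 6 (Nid1), of the member with the lowest level (Lama2), and of Lamb3, whose genotypes were the only ones not to overlap. The windows of Lama2 and Lamb3 lie inside the gene spans over which reads were counted, not at the upstream ends of those spans. Capitals mark a GC box (GGGCGG) or a CCAAT box (CCAAT), read on both strands.
Nid1, chr13:13437352-13437651, plus strand: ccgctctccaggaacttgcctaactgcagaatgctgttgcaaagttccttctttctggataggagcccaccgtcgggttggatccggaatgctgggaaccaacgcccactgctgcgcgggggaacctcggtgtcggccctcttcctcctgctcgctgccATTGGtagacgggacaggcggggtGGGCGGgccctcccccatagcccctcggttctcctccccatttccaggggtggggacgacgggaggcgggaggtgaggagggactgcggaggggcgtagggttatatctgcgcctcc
Lama2, chr10:27616893-27617192, minus strand: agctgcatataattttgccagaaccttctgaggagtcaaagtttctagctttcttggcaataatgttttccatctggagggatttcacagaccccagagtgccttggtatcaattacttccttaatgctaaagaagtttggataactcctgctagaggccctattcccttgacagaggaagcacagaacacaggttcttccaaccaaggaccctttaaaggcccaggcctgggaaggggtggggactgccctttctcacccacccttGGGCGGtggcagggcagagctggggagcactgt
Lamb3, chr1:193301744-193302043, plus strand: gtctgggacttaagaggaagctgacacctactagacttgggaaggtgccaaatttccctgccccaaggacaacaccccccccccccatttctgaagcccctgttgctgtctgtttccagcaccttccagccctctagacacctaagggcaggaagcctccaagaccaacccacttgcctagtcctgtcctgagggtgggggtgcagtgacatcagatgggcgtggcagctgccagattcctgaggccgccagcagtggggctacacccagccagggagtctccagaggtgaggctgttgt

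Lama4 and Lamc1 had no window, and Lama3 was left out of the promoter comparison, so nothing is said here of their promoters. The windows of the other members lay on both sides of the median CpG count of the RefSeq windows compared. Those of Lama5, Nid1 and Lamb1 held 24, 20 and 18 CpG dinucleotides, and those of Lamb3 (its second window overlaps the first), Lamb2 and Lama2 held 2 and 5, 4 and 1, beside a median of 7 over 32851 RefSeq windows of this length. A GC box stood in the windows of Lama2, Lama5, Lamb1 and Nid1 and in 35.7% of all windows. A CCAAT box stood in those of Lamb1 and Nid1 and in 37.4% of all windows. Neither TATAAA, present in 13.6% of all windows, nor the AP-1 motif TGACTCA, present in 5.2%, was found in any of the 7. The 3 members with windows above the median CpG count were at 191 to 297 TPM on average. The 3 with windows below it were at 20.7 to 178 TPM. Lamb1 at 191 TPM and Lamb2 at 178 TPM stood close together, and a link between CpG count and level was not tested. TPM here is the level per length, reads per kilobase of exon scaled to the same total in every library, the scale on which different genes can be set side by side.

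Lamc1, the gamma chain shared by most laminins, had the highest level per length of the members, and Lama2 the lowest. Lamc1 averaged 514 ± 23.6 TPM in Mll3 KO lungs and 506 ± 34.4 TPM in wild-type lungs (SD, n = 3 each), above 98.9% of the genes tested. Nid1 came next at 299 ± 11.6 TPM in Mll3 KO and 294 ± 29.1 TPM in wild-type lungs, then Lama5 at 276 ± 33.5 TPM in Mll3 KO and 265 ± 16 TPM in wild-type lungs. Lamc1 was 1.58 to 1.82 times as high as Nid1 within each library, whereas Nid1 exceeded Lama5 in 5 of 6 libraries and their ranges overlapped.

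Lamb1, Lama3 and Lamb2 followed at nearly the same level per length. Lamb1, the widespread beta chain, averaged 189 ± 15.6 TPM in Mll3 KO and 194 ± 12.1 TPM in wild-type lungs. Lama3 averaged 189 ± 2.49 TPM in Mll3 KO and 172 ± 15.96 TPM in wild-type lungs. Lamb2, the beta chain of mature vessel, muscle and alveolar basement membranes, averaged 184 ± 15.95 TPM in Mll3 KO and 172 ± 14.1 TPM in wild-type lungs. Their ranges over the 6 libraries overlapped, so their order among themselves is not fixed by these data. Lama5 was above Lamb1 in every library, by 1.28 to 1.497 times.

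Lama4 and Lamb3 stood lower, and Lama2 far lower. Lama4 averaged 114 ± 6.09 TPM in Mll3 KO and 114 ± 14.5 TPM in wild-type lungs. Lamb3 averaged 104 ± 0.44 TPM in Mll3 KO and 91.4 ± 1.88 TPM in wild-type lungs; Lama4 was the higher of the pair in 6 of 6 libraries although their ranges overlapped. Lama2 averaged 19.3 ± 1.13 TPM in Mll3 KO and 22.1 ± 4.01 TPM in wild-type lungs, and Lamb3 was 3.66 to 5.78 times as high in each library. Of laminin chains that are not members, Lamc3 was at 13.6 to 19.4 TPM and Lama1 at 1.97 to 2.77 TPM over the 6 libraries.

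**Figure D1:**
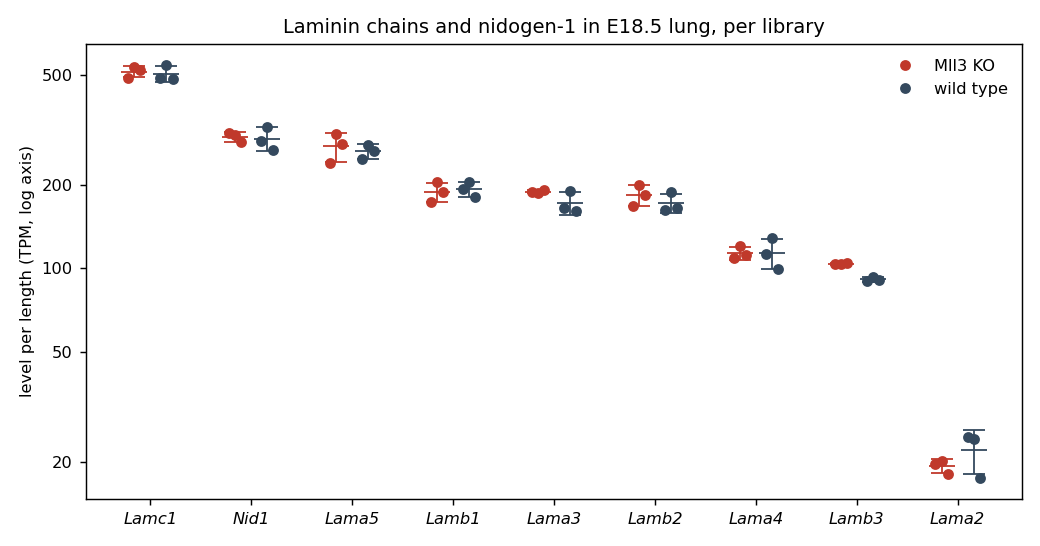
Level per length (TPM, log axis) of the 9 members in each library, Mll3 KO left of wild type, with mean and SD (n = 3 each). Levels run from 482.7 TPM or more for Lamc1 down to 24.6 TPM or less for Lama2, and only the 2 genotypes of Lamb3 do not overlap.

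The 5 alpha chain genes, Lama1 included, added up to 601 ± 38.9 TPM in Mll3 KO and 575 ± 44.5 TPM in wild-type lungs, and the 3 beta chain genes to 477 ± 31.4 TPM in Mll3 KO and 457 ± 26.6 TPM in wild-type lungs. The genotypes overlapped in both sums.

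No laminin or nidogen member passed the test between genotypes. Tested with edgeR on all genes, 0 of 9 passed in either direction, beside 0.0630% of the 19042 genes called higher and 0.305% called lower in Mll3 KO lungs. DESeq2 also called 0 of the 9, beside 0.326% of genes called higher and 1.54% lower, and limma voom 0 of the 9, beside 0% higher and 0.0420% lower. With no filter on low counts edgeR called 0 of the 9, beside 0.298% of genes higher and 0.982% lower, and with a term for the title prefix 0 of the 9, beside 0.746% higher and 2.54% lower. An unadjusted p under 0.05 was reached by 1 of the 9 (11.1%), in the higher direction, beside 4.71% of all genes tested in that direction, 6.02% in the lower and 10.7% in either. The genotypes did not overlap in 1 of the 9, with every Mll3 KO library higher, beside 8.60% of all genes in that direction, 8.45% in the lower and 17.0% in either. Both shares among the members are near those of all genes. The median log2 difference (Mll3 KO minus wild type) was −0.01 over the members and 0.01 over all genes tested. In 7 of 9 it lay within 0.1 of 0. The 95% intervals of the 9 differences together spanned 0.711-fold to 1.21-fold, so that larger changes lie outside every interval.

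Lamc1 and Nid1, the members of highest level, were also the closest to no difference. Lamc1 (ENSMUSG00000026478, mm10 chr1:153218922-153332786, minus strand) had 1211, 1285 and 1282 CPM in Mll3 KO lungs, against 1247, 1322 and 1248 CPM in wild-type lungs. The fold was 0.99 with an interval of 0.877 to 1.12 (adjusted p = 0.973, edgeR). Nid1 (ENSMUSG00000005397, mm10 chr13:13437551-13512269, plus strand) had 644, 613 and 591 CPM in Mll3 KO lungs, against 621, 662 and 581 CPM in wild-type lungs, a fold of 0.991 with an interval of 0.876 to 1.12 (adjusted p = 0.976, edgeR). In both genes the libraries of the 2 genotypes were interleaved.

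Lamb3 was the single member whose genotypes did not overlap. It encodes the beta chain found only in the epithelial anchoring laminin, and is mutated in junctional epidermolysis bullosa in humans. Its gene is ENSMUSG00000026639, mm10 chr1:193207699-193343878, on the plus strand. Its level was 206, 199 and 205 CPM in Mll3 KO lungs, against 183, 181 and 187 CPM in wild-type lungs. Every Mll3 KO library was higher, by a fold of 1.11 with an interval of 1.01 to 1.21. The log2 difference of 0.15 ± 0.06 (SE) had an unadjusted edgeR p of 0.0318 and did not pass after adjustment (adjusted p = 0.397). In p it ranked 1524 of 19042 genes. It was 0.18 within the title prefix of knockout 1 and 0.11 within the other. Its strand-aware counts leave out Hsd11b1 and G0s2, which lie on the opposite strand inside the Lamb3 span.

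Lama3, the alpha chain that pairs with Lamb3, was close behind in point estimate. The gene (ENSMUSG00000024421) lies on chromosome 18. It had 607, 586 and 613 CPM in Mll3 KO lungs, against 548, 601 and 541 CPM in wild-type lungs. Wild type 2 lay among the knockout values and the other 2 wild-type libraries below them. The log2 difference of 0.10 ± 0.08 did not pass (fold 1.07, interval 0.952 to 1.2, adjusted p = 0.701, edgeR).

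These 2 members are epithelial, and markers of 1 epithelial cell type differed between the genotypes. Of 12 alveolar type 1 markers, genes of the flat gas-exchange cells, 3 fell (Pdpn, Clic5 and Aqp5, adjusted p = 0.0387, 0.0423 and 0.0423, edgeR) and 9 did not pass; DESeq2 called 11 lower. The 12 summed to 5120 to 6091 CPM in Mll3 KO and 7350 to 7925 CPM in wild-type lungs. Of 8 general epithelial markers 0 passed in edgeR (5 at an unadjusted p under 0.05), and DESeq2 placed 1 of them higher and 3 lower, with sums of 1603 to 1691 CPM in Mll3 KO and 1606 to 1774 CPM in wild-type lungs. Of 10 alveolar type 2 markers 0 passed in edgeR (3 at an unadjusted p under 0.05; DESeq2 called 2 higher), with sums of 20900 to 25980 CPM in Mll3 KO and 20900 to 23160 CPM in wild-type lungs. The part of these shifts in the values of Lama3 and Lamb3 was not tested, and in whole lung fewer cells of a type and less RNA per cell cannot be told apart.

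Lama5 and Lama4, the main epithelial and vascular alpha chains, overlapped fully between genotypes. Lama5 (ENSMUSG00000015647, mm10 chr2:180176373-180225859, minus strand) had 821, 1016 and 955 CPM in Mll3 KO lungs, against 873, 937 and 944 CPM in wild-type lungs, a log2 difference of 0.02 ± 0.10 (adjusted p = 0.969, edgeR). Knockouts 1 and 2 were its lowest and highest libraries. Lama4 (ENSMUSG00000019846, mm10 chr10:38965515-39110188, plus strand) had 395, 424 and 401 CPM in Mll3 KO lungs, against 419, 456 and 377 CPM in wild-type lungs, a log2 difference of −0.04 ± 0.08 (adjusted p = 0.923, edgeR). Here the wild-type libraries gave both extremes. Of 10 endothelial markers 0 passed in edgeR (3 at an unadjusted p under 0.05; DESeq2 called 1 lower), and their sums were 2302 to 2457 CPM in Mll3 KO and 2407 to 2860 CPM in wild-type lungs.

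Lama2, whose loss causes congenital muscular dystrophy in mice and humans, had a lower point estimate in Mll3 KO lungs. The gene is ENSMUSG00000019899, mm10 chr10:26980036-27619758, on the minus strand. It had 98.4, 97.7 and 89.1 CPM in Mll3 KO lungs, against 126, 118 and 90.6 CPM in wild-type lungs. Wild types 1 and 2 stood above all other libraries, and wild type 3 lay among the knockouts. The log2 difference of −0.23 ± 0.12 did not pass (fold 0.852, interval 0.711 to 1.02, adjusted p = 0.521, edgeR). It was −0.138 without wild type 1 and −0.365 without wild type 3. It was −0.31 within the title prefix shared by wild types 1 and 2 and knockout 1, and 0.04 within the other prefix, in which wild type 3 stands alone for its genotype. Of 8 smooth muscle and myofibroblast markers 0 passed (0 at an unadjusted p under 0.05 in edgeR, 0 in DESeq2). They summed to 840.0, 976 and 799 CPM in Mll3 KO lungs, against 1376, 981 and 893 CPM in wild-type lungs, so wild type 1 was highest in both, and the part of that tissue in Lama2 was not tested.

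The remaining beta chains, Lamb1 and Lamb2, had small differences that did not pass. Lamb1 (ENSMUSG00000002900, mm10 chr12:31265234-31329644, plus strand) had 516, 591 and 556 CPM in Mll3 KO lungs, against 594, 597 and 561 CPM in wild-type lungs (log2 difference −0.07 ± 0.08, adjusted p = 0.788, edgeR). Knockout 1 was its lowest library, and the genotypes overlapped. Lamb2 (ENSMUSG00000052911, mm10 chr9:108479736-108490530, plus strand) had 306, 354 and 334 CPM in Mll3 KO lungs, against 306, 336 and 313 CPM in wild-type lungs (log2 difference 0.06 ± 0.08, adjusted p = 0.852, edgeR), again with overlap.

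**Figure D2:**
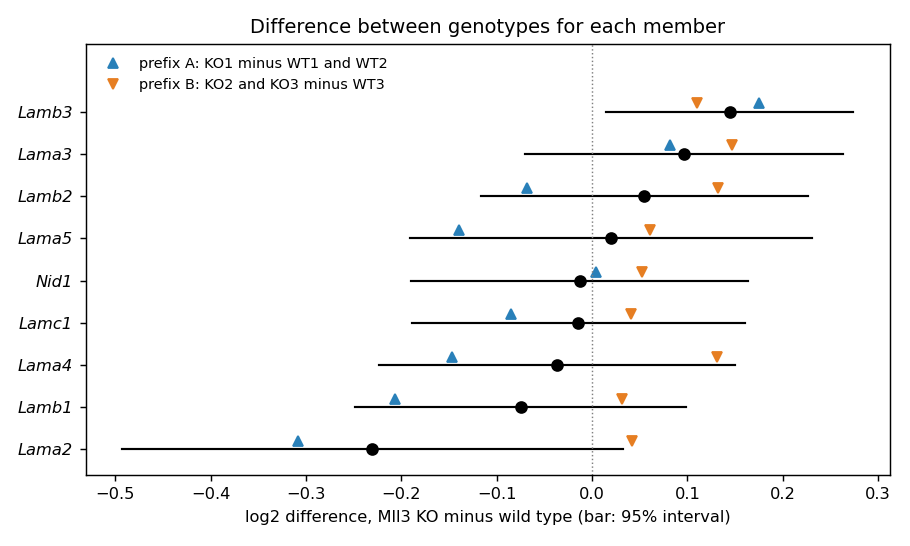
Log2 difference, Mll3 KO minus wild type, of each member with its 95% interval (black), and the difference within each of the 2 title prefixes (triangles). The interval of Lamb3, 0.015 to 0.274 before any adjustment, is the only one that leaves out 0; Lama2 is at −0.31 within one prefix and at 0.04 within the other.

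Within the prefix of knockout 1, 6 of the 9 members had a lower value in the knockout library, and within the other the mean log2 CPM of the 2 knockout libraries was above wild type 3 for all 9. Each prefix holds a single library of one genotype, so neither gives a spread. All 9 values in the second rest on wild type 3 alone. The shares of all genes with these directions were not computed, so the counts cannot be read as a trait of the members. The libraries of 1 genotype spread differently for different members. Lamb3 varied least, with a coefficient of variation of 1.78% in Mll3 KO and 1.67% in wild-type lungs. Lama2 varied by 5.43% in Mll3 KO and 16.6% in wild-type lungs, and Lama5 by 10.7% in Mll3 KO and 4.26% in wild-type lungs.

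By level per length, Lama5 was the largest alpha chain in both genotypes and Lama2 the smallest. Lama5 supplied 46.0% ± 2.66 of the 4 alpha members in Mll3 KO and 46.3% ± 2.17 in wild-type lungs. Lama3 supplied 31.7% ± 2.15 in Mll3 KO and 30.1% ± 0.45 in wild-type lungs. Lama4 supplied 19.0% ± 0.52 in Mll3 KO and 19.8% ± 1.26 in wild-type lungs, and Lama2 3.24% ± 0.28 in Mll3 KO and 3.85% ± 0.63 in wild-type lungs. The genotypes overlapped for all 4.

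Among the beta members, the share of Lamb1 did not overlap between genotypes. It was 39.0%, 40.3% and 39.5% in Mll3 KO lungs, against 43.4%, 42.1% and 41.5% in wild-type lungs, a difference of −2.74 percentage points. Lamb2 supplied 38.6% ± 0.81 in Mll3 KO and 37.7% ± 1.10 in wild-type lungs, and Lamb3 21.9% ± 1.47 in Mll3 KO and 20.02% ± 0.79 in wild-type lungs. Both overlapped. Shares sum to a whole, so a lower share of 1 chain is a higher share of the others, and none of these shares was tested. Among single genes tested, the CPM of 17.0% did not overlap between genotypes in either direction, and no such figure was computed for shares.

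**Figure D3:**
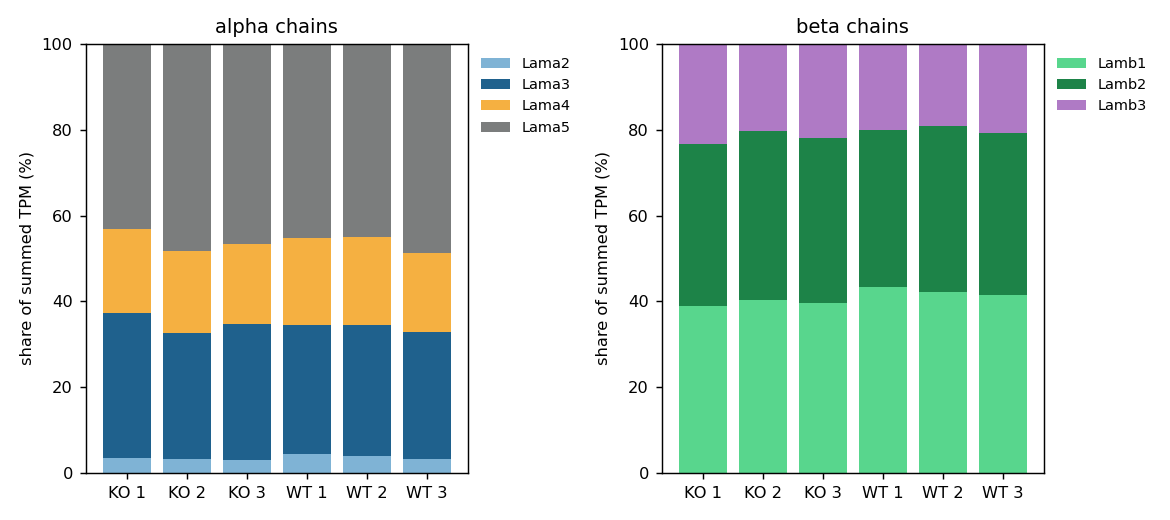
Share of the summed TPM of the 4 alpha members (left) and of the 3 beta members (right) in each library, Mll3 KO libraries left of wild type. Lama5 is the largest alpha share in all 6 libraries (43.1% to 48.8%), and Lamb1 takes 39.0% to 40.3% in Mll3 KO and 41.5% to 43.4% in wild-type lungs.

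Ratios within a library put chains side by side without any scaling between libraries. They were chosen after the values were seen and are given without a test. Lama3 over Lamb3 was 1.82, 1.81 and 1.84 in Mll3 KO lungs, against 1.84, 2.04 and 1.78 in wild-type lungs, with overlap. Lama3 over Lama5, the epithelial alpha chains, was 0.785, 0.611 and 0.681 in Mll3 KO lungs, against 0.665, 0.680 and 0.608 in wild-type lungs, also with overlap.

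The ratio of the widespread beta chains did not overlap between genotypes. Lamb2 over Lamb1 was 0.968, 0.976 and 0.977 in Mll3 KO lungs, against 0.841, 0.919 and 0.911 in wild-type lungs. Lamb3 over Lamb1 was 0.599, 0.506 and 0.553 in Mll3 KO lungs, against 0.463, 0.456 and 0.501 in wild-type lungs, and did not overlap either. Nid1 over Nid2, its close relative with a similar linking role, was 4.07, 3.63 and 3.69 in Mll3 KO lungs, against 3.23, 3.51 and 3.27 in wild-type lungs, with no overlap. Nid1 over Lamc1, the chain whose short arm nidogen binds, overlapped. It was 0.549 to 0.633 in Mll3 KO and 0.554 to 0.597 in wild-type lungs. Of the other ratios taken, Lama5 over Lama4 overlapped, and Lama3 and Lamb3 over the alveolar type 1 marker Ager did not. Lamb1 enters both beta ratios and the beta shares, so these are not separate results. Among single genes tested, 17.0% did not overlap between genotypes in either direction, and no such figure was computed for ratios.

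**Figure D4:**
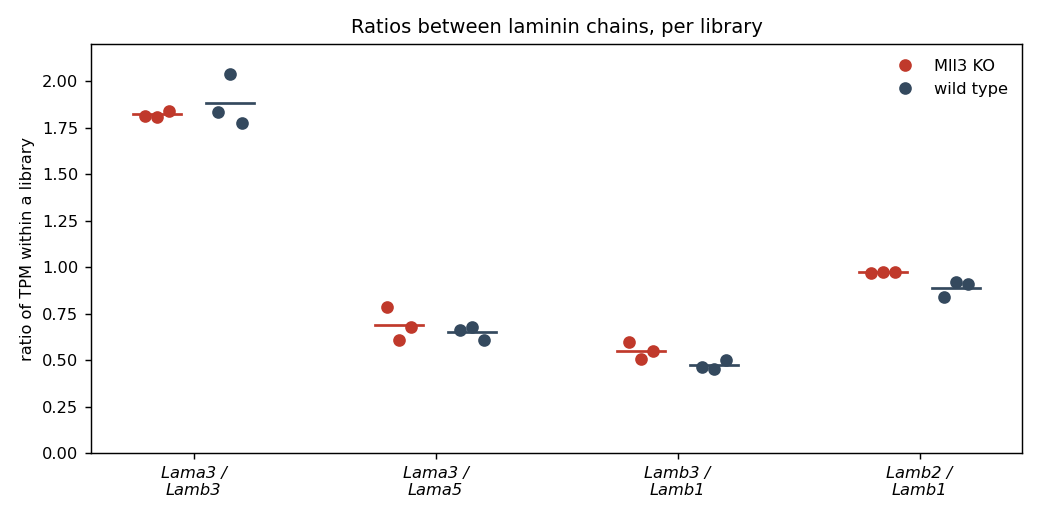
Ratio of TPM between pairs of laminin chains within each library, with the mean as a line (n = 3 each), Mll3 KO left of wild type. Lamb3 over Lamb1 and Lamb2 over Lamb1 do not overlap between genotypes; Lama3 over Lamb3 and Lama3 over Lama5 do.

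Pearson's r of log2 CPM between members ran from −0.70 (Lamb1 and Lamb3) to 0.86 (Lama5 and Lamb2) over 36 pairs, as a description, since the libraries share genotype, title prefix and scaling. Lama3 and Lamb3 were at 0.61. Among 11303 genes with a mean of at least 10 CPM, Lama3 was closest to Fndc3a (r = 0.997) and Zmynd11 (0.989), and Lamb3 to Adamts6 (0.996) and Aldh9a1 (0.989). Lama5 was closest to Zfhx3 (0.999) and Crebbp (0.993), Lamb1 to Slc8a1 (0.992) and Gnao1 (0.986), and Lamb2 to Ap4e1 (0.992) and Zfp362 (0.988). Lamc1 was closest to Tram2 (0.993) and Phf8 (0.986), Nid1 to Dvl1 (0.998) and Msantd3 (0.987), Lama4 to Rapgef1 (0.982) and Srgap2 (0.978), and Lama2 to St3gal2 (0.992) and Ptprc (0.991). Each is among the highest of 11303 values of r over only 6 libraries, so an r near 1 can arise by selection alone. Shared regulation was not tested.

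Other components of the basement membrane were compared in the same fit, in 8 lists with no set test. No gene of any of them passed in edgeR. Of 2 other laminin chains 0 passed (0 at an unadjusted p under 0.05 in edgeR, 0 in DESeq2), with Lamc3 at a log2 difference of −0.13 and Lama1 at 0.05. In the list of Nid2 and the proteoglycans perlecan (Hspg2) and agrin (Agrn), 0 of 3 passed in edgeR (1 at an unadjusted p under 0.05) or DESeq2, and the median was −0.14. Nid2 had 121 ± 4.21 CPM in Mll3 KO and 139 ± 5.90 CPM in wild-type lungs, did not overlap, and had a log2 difference of −0.20 ± 0.06 (adjusted p = 0.242, edgeR). Hspg2 and Agrn were at −0.14 and −0.06.

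Basement membrane collagens had wider differences in point estimate than the members, in both directions. Of 9 tested, 0 passed in edgeR and 5 stood at an unadjusted p under 0.05. By DESeq2, 2 were called higher and 2 lower. Col18a1, the source of endostatin, was at 364 ± 48.9 CPM in Mll3 KO and 252 ± 14.5 CPM in wild-type lungs (log2 difference 0.53 ± 0.10, adjusted p = 0.0608 in edgeR and 4.1e-05 in DESeq2). Col15a1, its relative in vessel basement membranes, was at 135 ± 10.2 CPM in Mll3 KO and 107 ± 9.50 CPM in wild-type lungs (0.34 ± 0.08, adjusted p = 0.133 in edgeR and 0.0263 in DESeq2). Col4a3 and Col4a4 (the second named after its values were seen), chains of the type IV collagen network of alveolar and glomerular basement membranes, were at −0.55 ± 0.14 and −0.57 ± 0.17 (adjusted p = 0.195 and 0.290 in edgeR, 0.00157 and 0.00482 in DESeq2). Col4a1 and Col4a2, the ubiquitous chains, also named after their values were seen, were at −0.20 and −0.24 and passed in neither. The type IV chains Col4a5 and Col4a6, named after their values were seen too, went the other way. They were at 0.064 and 0.235 and passed in neither, and every Mll3 KO library was higher for Col4a6.

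Among 13 other basement membrane proteins 0 passed in edgeR and 3 stood at an unadjusted p under 0.05. The same number was called lower by DESeq2. These were the peroxidase Pxdn, which cross-links type IV collagen, at −0.34 ± 0.08 (adjusted p = 0.112 in edgeR, 0.000622 in DESeq2), the matrix protein gene Tinagl1 at −0.39 ± 0.09 (0.131 in edgeR, 0.00903 in DESeq2) and Ntn4, a netrin that binds laminin gamma chains, at −0.53 ± 0.13 (0.136 in edgeR, 0.0238 in DESeq2). The list's median was −0.175.

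Laminin receptors were lower in point estimate in 10 of 13 genes, beside 9018 of all 19042 genes tested (47.4%), with a median of −0.15, and 0 passed in edgeR (4 at an unadjusted p under 0.05) or DESeq2. Itga3, the integrin alpha chain for Lama3- and Lama5-containing laminins, was at 161 ± 16.7 CPM in Mll3 KO and 196 ± 11.0 CPM in wild-type lungs (−0.29 ± 0.08, adjusted p = 0.221, edgeR). Dag1, which encodes dystroglycan, was at 602 ± 72.5 CPM in Mll3 KO and 729 ± 8.46 CPM in wild-type lungs (−0.28 ± 0.10, adjusted p = 0.309, edgeR). Itga7, the muscle integrin chain that binds Lama2-containing laminins, was at 46.1 ± 11.3 CPM in Mll3 KO and 63.3 ± 5.61 CPM in wild-type lungs (−0.46 ± 0.18, adjusted p = 0.428, edgeR).

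Of 11 tested enzymes that glycosylate dystroglycan for laminin binding, 0 passed in edgeR (1 at an unadjusted p under 0.05) or DESeq2, and their median was 0.00; the 3 of lowest p were Pomk, B3galnt2 and Pomgnt2, at log2 differences of 0.29, 0.14 and 0.29. All 10 genes listed as intracellular partners of laminin receptors were lower in point estimate, beside the same 47.4% of all genes tested. Their median was −0.12, and 0 passed (1 at an unadjusted p under 0.05 in edgeR, 0 in DESeq2). The list includes the membrane-spanning collagen Col17a1, its lowest at −1.26. Col17a1 was at 26.0 CPM in wild type 1 and 4.10 to 8.09 CPM in the other libraries. The 3 of lowest p were Utrn, Tln1 and Lims1, at log2 differences of −0.19, −0.18 and −0.14. Of 5 tested proteases known to cut laminins 0 passed in edgeR (1 at an unadjusted p under 0.05), and DESeq2 called 1. That was Bmp1, which processes the Lama3 protein among others, at 253 ± 13.3 CPM in Mll3 KO and 203 ± 11.9 CPM in wild-type lungs (0.32 ± 0.07, adjusted p = 0.115 in edgeR, 0.00848 in DESeq2). Mmp9 and Mmp14 were at log2 differences of −0.36 and −0.07 and did not pass.

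**Figure D5:**
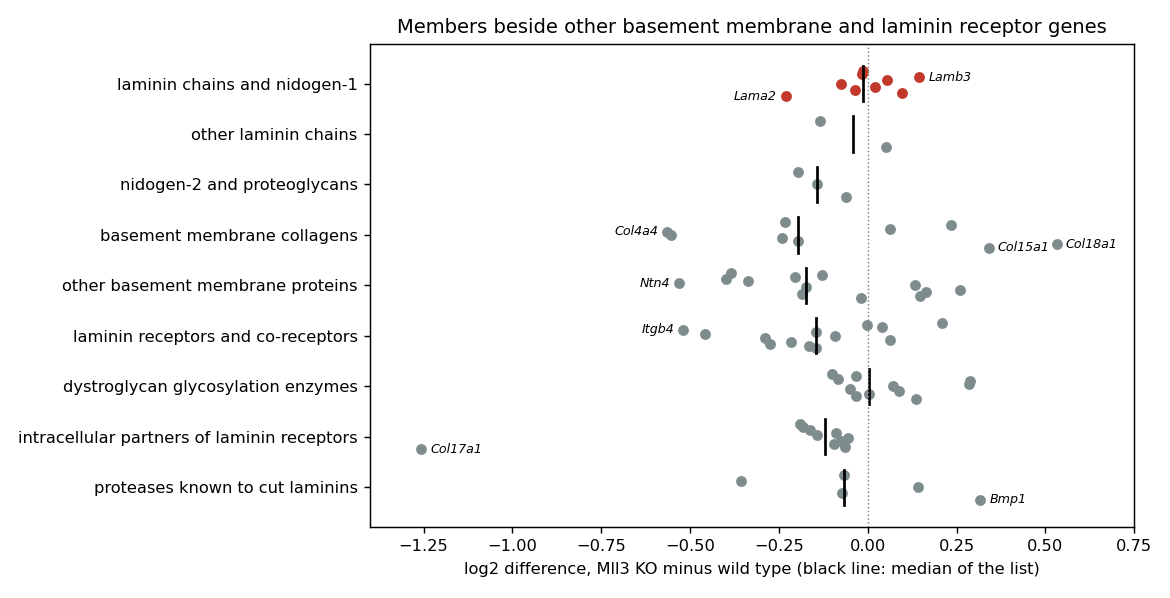
Log2 difference, Mll3 KO minus wild type, of each tested gene in 9 rows, with the list's median as a black line. The 9 members (top, red) lie between −0.23 and 0.15 with a median of −0.01, whereas the basement membrane collagens run from −0.57 to 0.53.

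Markers of the remaining cell types were counted in the same fit, and 0 genes of these lists passed in edgeR. Of 8 macrophage and monocyte markers 4 stood at an unadjusted p under 0.05 in edgeR. DESeq2 placed 1 of them higher and 1 lower. They summed to 553 to 741 CPM in Mll3 KO and 942 to 1392 CPM in wild-type lungs. Of 6 mesothelial markers 2 stood at an unadjusted p under 0.05 and DESeq2 called 2 lower, with sums of 509 to 634 CPM in Mll3 KO and 717 to 892 CPM in wild-type lungs. Of 9 fibroblast markers 2 stood at an unadjusted p under 0.05 and DESeq2 called 1 lower, with sums of 4160 to 5612 CPM in Mll3 KO and 4958 to 5869 CPM in wild-type lungs. The macrophage and mesothelial sums did not overlap between genotypes, but each rested on 1 gene. Without Lyz2, which alveolar type 2 cells also express, the other 7 macrophage markers summed to 139, 144 and 140 CPM in Mll3 KO lungs, against 159, 144 and 142 CPM in wild-type lungs, and overlapped. Without Msln, the other 5 mesothelial markers summed to 354, 434 and 339 CPM in Mll3 KO lungs, against 513, 395 and 466 CPM in wild-type lungs, and overlapped too. These sums without 1 gene were added after the data were seen.

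Of 5 tested cartilage markers 3 stood at an unadjusted p under 0.05 in edgeR and 1 was called higher by DESeq2. The 7 listed cartilage markers had sums of 43.7 to 51.7 CPM in Mll3 KO and 26.3 to 42.7 CPM in wild-type lungs, without overlap. Of 7 pericyte markers 1 stood at an unadjusted p under 0.05 and DESeq2 called 0, with sums of 996 to 1083 CPM in Mll3 KO and 949.6 to 1129 CPM in wild-type lungs. No tested marker of Schwann cells and nerve, skeletal muscle, cardiac muscle or red blood cells stood at an unadjusted p under 0.05 in edgeR or was called by DESeq2. The 7 listed Schwann and nerve markers, 2 of them tested, summed to 35.8 to 51.95 CPM in Mll3 KO and 41.4 to 63.2 CPM in wild-type lungs. The 7 listed cardiac markers, 6 of them tested, summed to 143 to 295 CPM in Mll3 KO and 108 to 251 CPM in wild-type lungs, and red blood cell markers to 2239 to 3823 CPM in Mll3 KO and 2500 to 3814 CPM in wild-type lungs.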

How the data were processed

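Raw read counts per gene were deposited by the authors; per the file headers they were made with featureCounts v1.6.3 in reverse-stranded mode, and GSNAP, DESeq2 and mm10 are named in the submitters' processing notes. A further table deposited by the authors gives, as a normalized signal, each count over its library's size factor. Multiplied back, 100% of its values lay within 0.1 read of the counts, plus a small allowance scaled by the size factor. Poly(A) RNA went into directional libraries sequenced from 1 end, per the labels' protocols.

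The count test was edgeR 4.0.16 (R 4.3.3) with TMM factors, filterByExpr and genotype as the only term, on 19042 genes, adjusted after Benjamini and Hochberg, at a threshold of 0.05. SE is the absolute log2 difference divided by the square root of F, and 95% intervals use its degrees of freedom. CPM values are TMM-scaled. Spike-in rows (92, holding 1 read) were left out. Alternatives were DESeq2 1.42.0, limma 3.58.1 (voom, and on the signal), other scalings and filters, a term for the title prefix, and each library left out; the tests were tried on simulated counts. The members and the lists (8 of pathways, 14 of cell types) were chosen with earlier results of these data known; 1 listed gene is not reported here. Named genes are all members, the genes past the threshold or up to 3 of lowest p per list, and the 2 genes nearest each member by r.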

Additional observations from a re-analysis of the deposited data

How the results depend on the processing

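The 9 members were refitted under 14 alternatives, and none was called in any of the 126 refits (lowest adjusted p = 0.202). Of these, 114 kept the direction and 12 turned it, all in 4 members near no difference. With library size only, Lamc1 and Nid1 were at 0.019 and 0.021 on the log2 scale, and with the title prefix as a replicate block Lama5 and Nid1 were at −0.039 and 0.028. Over the 6 refits without 1 library, Lama5 ran from −0.048 to 0.099, Nid1 from −0.066 to 0.029, Lamc1 from −0.035 to 0.009 and Lama4 from −0.111 to 0.026. Lamb3 stayed at 0.128 to 0.178 over all 14, and Lama2 ran from −0.365 to −0.135.

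Calls in other lists depended on the test. DESeq2 called 2 basement membrane collagens higher and 2 lower, 3 other basement membrane proteins lower and 1 protease higher. Without a filter edgeR called 2 collagens higher, 3 other basement membrane proteins lower, 1 receptor lower and 1 protease higher. With the replicate block it called 2 collagens higher and 2 lower, 1 other basement membrane protein lower, 1 receptor lower and 1 protease higher. No paired analysis was possible because replicate numbers follow sample order only and the prefix has no stated meaning. For each gene, the mean log2 CPM of a library's own genotype was first subtracted. What remained was compared for each knockout with each wild-type library. Pairs sharing a prefix had an r of −0.119, 0.284, −0.091 and 0.240. Pairs of unlike prefix had an r of 0.321, −0.229, −0.31, 0.033 and −0.124, so the ranges overlapped.

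By CPM in place of the level per length, the ranks were Lama5 2, Nid1 3, Lama3 4, Lamb1 5, Lama4 6 and Lamb2 7. Mean shares of CPM were 5.12% for Lama2, 28.9% for Lama3, 52.3% for Lamb1, 29.9% for Lamb2 and 17.8% for Lamb3. Exon lengths pool all isoforms, which limits the comparison of levels between genes.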
